A study of Drosophila melanogaster with 2 samples.

Results

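The 7 genes described here take part in counting X chromosomes and setting sex in the Drosophila melanogaster embryo: Sxl, sisA, sc, da, dpn, emc and gro. They were taken as a fixed list of 7 of the 13945 protein-coding genes on the chromosome arms. All deposited peaks were collected whose summit lay inside a member gene or had a transcription start (an annotated 5′ end) of it as the nearest protein-coding start. Gene models came from Ensembl on the dm6 assembly.

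The peaks come from chromatin immunoprecipitation and sequencing (ChIP-seq) of CG7271 in whole embryos aged 0 to 4 hours. CG7271 is annotated as an uncharacterized protein, and the embryos stably expressed, from a transgene, CG7271 fused at its C-terminus to the green fluorescent protein (GFP). An anti-GFP antibody was used per the description, although the antibody label names CG7271. Both libraries, biological replicates 2 and 3, belong to 1 group with no other genotype or treatment, so no test between groups was possible and all values below are descriptions. The sex of the embryos was not collected, and female and male embryos cannot be told apart in these peaks. No expression values were analysed here that could check the tissue against markers.

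In flies, sex follows from the number of X chromosomes relative to autosomes. X-linked activators, among them the leucine zipper protein sisA and the helix-loop-helix protein sc, work with the maternally supplied helix-loop-helix partner da to turn on the early promoter of Sxl in embryos with a pair of X chromosomes. The hairy-type repressor dpn, its corepressor gro and the inhibitor emc, which lacks a DNA-contacting basic region and captures partners such as da and sc, act against them. The early promoter of Sxl is used for a short time in the early embryo. Afterwards the late, or maintenance, promoter is active in both sexes, and the splicing of its transcripts by the Sxl protein keeps Sxl on in females.

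Of the 4 deposited lists, those of replicate 2, of replicate 3 and of both pooled held 30000 peaks each. The list that passed the authors' irreproducible discovery rate (IDR) threshold, which rests on how ranks agree between replicates, held 2445. Single peaks of this list can still differ in rank between the replicates. The IDR peaks were the 2445 pooled peaks of highest signal, so a member's IDR rank and pooled rank are the same number. The authors' signal has an unstated scale, and it is given here as a multiple of the median signal of the same list (35.1 in replicate 2, 21.5 in replicate 3 and 51.3 in the pooled list). Rank 1 is the highest signal of a list. Read depth is unknown from these files.

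IDR peaks lay at the promoters of 5 of the 7 genes, namely gro, Sxl, emc, dpn and da, and at neither sisA nor sc. A promoter summit here lies within 500 bp of any annotated 5′ end of the gene, a condition met by 12% of protein-coding genes (1678 of 13945). Genes with several 5′ ends, such as Sxl and gro with 4 each, have more ways to meet it, and the 12% was not matched for this. The Sxl summit lay at neither its late nor its early promoter, as described below. The list of 7 genes was drawn up with results of these data in view, so its count is not independent evidence that the pathway is favoured. With the full pooled list all 7 had a promoter summit, against 54.2% of coding genes. That list reaches down to weak calls, such as the sisA summit with a −log10 q of 0.596. A pooled summit by itself, here and in the counts below, is therefore not shown to be reproducible. Some summits outside the IDR list were found in both replicates, as described below. The ranks of the 5 IDR promoter summits ran from 758 to 2377 with a median of 1903, whereas the median over the 1678 genes was 1151. Of these 5 summits, 4 ranked below that median, and that of gro, at rank 758, ranked above it.

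Each replicate taken alone gave fewer members. The 2445 highest peaks of replicate 2 included promoter summits of Sxl, emc and gro (3 of 7, with 12.2% of coding genes). Those of replicate 3 included Sxl, da and gro (3 of 7, with 12.1%). Sxl and gro were thus found in both, emc and da in a single replicate, and dpn in neither. Within 200 bp in place of 500 bp the IDR list kept 4 members and lost Sxl.

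**Figure D1:**
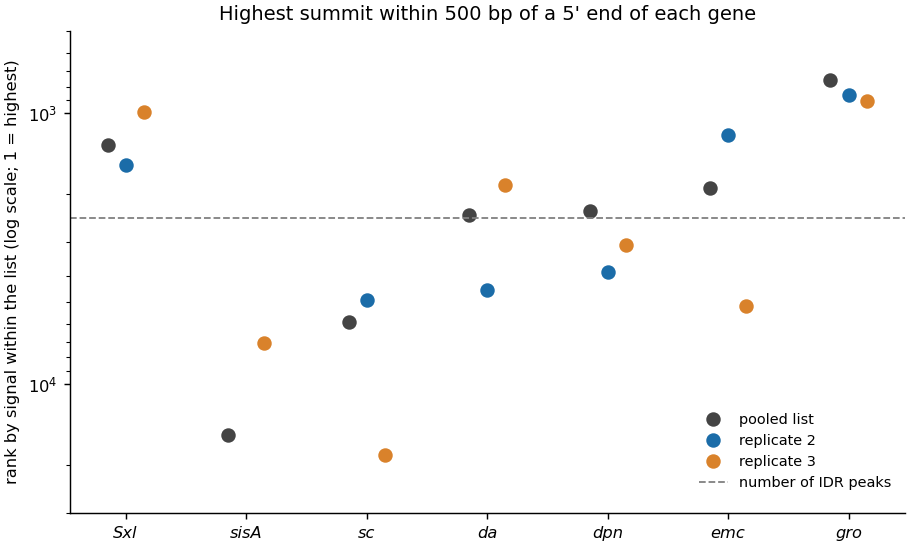
The y axis (log scale, reversed) gives the rank by signal of the highest summit within 500 bp of a 5′ end of each gene in the pooled list and in each replicate list, with a dashed line at the 2445 IDR peaks. The points of gro and Sxl lie above the line in all 3 lists, those of emc, da and dpn fall on both sides of it, and those of sc and sisA lie below it, with no replicate 2 point for sisA.

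By the wider rule, which also takes summits away from promoters, the 7 genes held 8 IDR summits. Sxl had 3, dpn 2, and da, emc and gro 1 each, and 14.9% of coding genes had any. In the pooled list the genes held 42 summits, with 17 at Sxl, 7 each at emc and sc, 4 at dpn, 3 each at gro and sisA and 1 at da. Replicate 2 gave 44 and replicate 3 gave 45, but sisA had 0 in replicate 2 and 1 in replicate 3. The sequence assigned to the genes added up to 82.2 kb. Over it IDR summits occurred at 0.973 per 10 kb and pooled summits at 5.11 per 10 kb, compared with 0.183 and 2.24 over the chromosome arms. The arms figures cover all 133.9 Mb, also sequence far from any gene, and rates at other single genes were not compared. With genes chosen with results of these data in view, these rates are no independent evidence either.

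**Figure D2:**
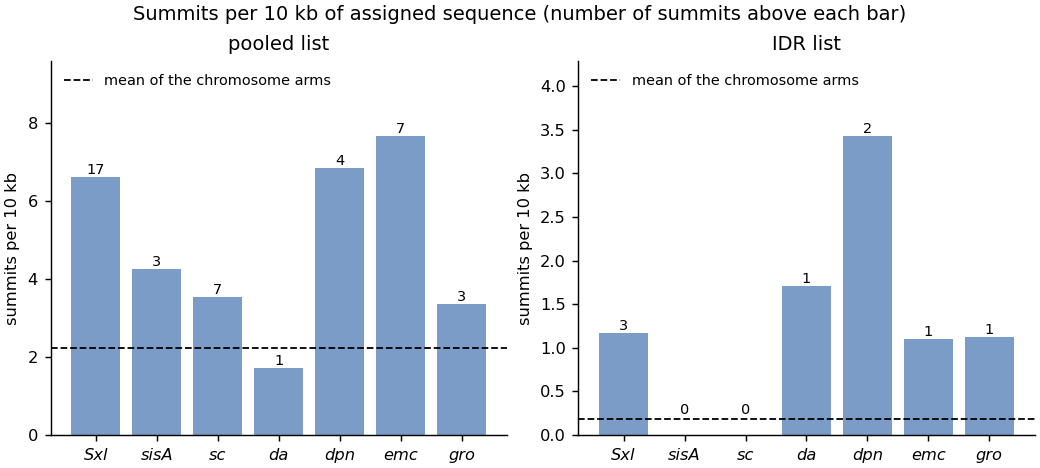
Bars give the number of pooled (left) and IDR (right) summits per 10 kb of sequence assigned to each gene, with the number of summits above each bar and the mean of the chromosome arms as a dashed line. In the pooled list da, at 1.71 per 10 kb, is the single gene under the mean, while sisA and sc have 0 IDR summits.

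Replicates recovered the member IDR summits about as often as other IDR summits. A summit lay within 100 bp in both replicate lists for 7 of the 8, and for 96.1% of all 2445 IDR peaks. The exception was da, whose replicate 2 summit lay just beyond that distance. Outside the IDR list 11 of the 34 other pooled summits at these genes were found in both replicates. Most of their weaker summits thus rest on a single replicate or on the pooled call. The share for all pooled peaks outside the IDR list is not given here, so this count is not a trait of these genes. Over the whole pooled list, IDR peaks included, 36.4% were found in both, and over all 42 member summits 42.9%.

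Sxl, the RNA-binding switch protein that the pathway controls, is transcribed from the minus strand of X at chrX:7074550-7098053. Its 25 annotated transcripts start at 4 different 5′ ends. A pair of them, at 7098053 and 7097768, is the upstream-most cluster and was taken as the late promoter, with 19 transcripts. The early promoter was taken to be the end at 7092883, 5170 bp downstream, whose 4 transcripts splice directly to an exon 10394 bp downstream of the late end. A further end at 7097066, 987 bp downstream of the late end, starts 2 transcripts and is called the third cluster here.

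None of the 3 IDR summits of Sxl lay at its late or its early promoter. The highest, rank 1314, lay in an intron 387 bp downstream of the third cluster (peak chrX:7096489-7096868). It ranked 1559 in replicate 2 and 990 in replicate 3, with 2.46 and 3.44 times the list median. The next, rank 1786 (chrX:7086746-7087125), lay in an intron 5947 bp downstream of the early 5′ end, and ranked 2521 and 2781 in the replicates. The last, rank 2369 (chrX:7095581-7095960), lay in an intron 1295 bp downstream of the third cluster, with replicate ranks of 3469 and 2128. All 3 were found in both replicates, and no other gene had a start within 500 bp. How the summits divide depends on how the starts are grouped. Joining starts within 1000 bp, an alternative chosen after seeing the data, merges the third cluster with the late one, and the late promoter then takes 2 of the 3 IDR summits as its nearest. These summits still lie 1374 and 2282 bp downstream of the upstream-most late end.

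Weaker pooled summits did lie at both named promoters. At the late promoter the pooled summit was 108 bp downstream of 7098053, at rank 5786 with 1.52 times the list median and a −log10 q of 1.77. The replicate summits there were 34 bp upstream of the end at 7097768 in replicate 2 (rank 4763) and 33 bp upstream of 7098053 in replicate 3 (rank 3001), so they marked different ends of the cluster. At the early promoter the pooled summit lay 43 bp downstream of the 5′ end at rank 10174, with 1.18 times the list median and a −log10 q of 0.95. It ranked 17567 in replicate 2 and 8155 in replicate 3. The pooled list and both replicate lists thus held a summit near the early promoter, and the IDR list did not. The signal there was 0.942 times the list median in replicate 2 and 1.3 times in replicate 3.

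**Figure D3:**
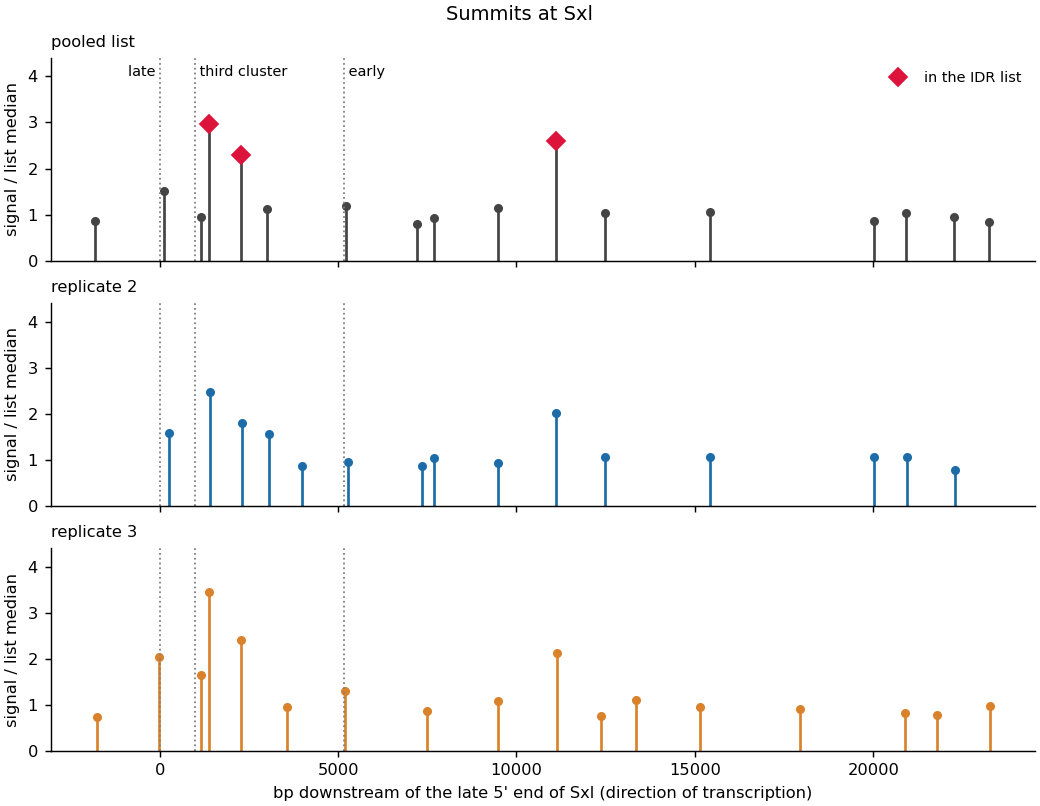
Each stem is a summit assigned to Sxl, placed by its distance in bp downstream of the late 5′ end, with its signal as a multiple of the list median, in the pooled list and in each replicate; dotted lines mark the early and late starts and the third cluster. The 3 IDR summits (diamonds, 2.97, 2.59 and 2.29 times the median) stand over the other 14 pooled summits, and none is on the late or early line.

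The sequences around the 3 Sxl IDR summits, 50 bp to either side, are shown in the direction of Sxl transcription because they are the sites of highest signal at the switch gene. Capitals here and in the sequences further on mark the E-box CANNTG (the site of helix-loop-helix proteins such as da with sc), CACGCG (a site of hairy-type repressors such as dpn) and CAGGTAG or TAGGTAG (sites of the embryonic activator Zelda), on either strand. Letters are from the RefSeq copy of dm6.
Sxl rank 1314, chrX:7096629-7096729, minus strand: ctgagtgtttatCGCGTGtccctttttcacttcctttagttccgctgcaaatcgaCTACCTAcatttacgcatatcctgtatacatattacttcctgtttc
Sxl rank 1786, chrX:7086886-7086986, minus strand: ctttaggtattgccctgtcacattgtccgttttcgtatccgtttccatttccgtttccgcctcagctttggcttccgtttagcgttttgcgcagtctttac
Sxl rank 2369, chrX:7095721-7095821, minus strand: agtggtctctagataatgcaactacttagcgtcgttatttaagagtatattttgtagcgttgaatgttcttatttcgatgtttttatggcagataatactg
The window of rank 1314 held 1 CACGCG and 1 TAGGTAG, both on the strand opposite to transcription. The other 2 windows held none of the marked strings.

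For comparison, the 150 bp directly before the early 5′ end of Sxl are shown, where the pooled list had only a weak summit. This stretch, the strings CAGGTAG and TAGGTAG and what the capitals mark were chosen after the sequences had been read.
Sxl early promoter, chrX:7092884-7093033, minus strand: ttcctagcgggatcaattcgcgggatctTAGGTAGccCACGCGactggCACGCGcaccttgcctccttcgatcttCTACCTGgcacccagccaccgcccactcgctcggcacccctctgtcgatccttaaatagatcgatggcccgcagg
The stretch held CACGCG at 2 places, beginning 113 and 102 bp before the 5′ end, TAGGTAG at 122 bp and CAGGTAG, on the other strand, at 75 bp. Among 19253 protein-coding 5′ ends, 3.31% had at least 1 CACGCG in the same stretch and 0.182% at least 2, 0.987% had a CAGGTAG and 0.904% a TAGGTAG. No E-box lay in the 150 bp, while 52.3% of the 5′ ends had at least 1 there. A match is a run of letters and not a measured site.

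Genes with as many IDR summits as Sxl were uncommon, since 1.08% of coding genes had 3 or more and 2.22% had 17 or more pooled summits. These counts are not corrected for length, and Sxl had the most assigned sequence of the 7 (25.6 kb). Per 10 kb it had 1.17 IDR summits, near emc (1.1) and gro (1.12), under da (1.71) and dpn (3.43), and over sisA and sc (0). Besides Sxl, 84 genes had exactly 3 IDR summits. Those whose best rank was nearest to that of Sxl were mam (rank 1304, 29 pooled summits), which encodes a coactivator of Notch, mtgo (1318, 34 pooled summits), by (1334, 6 pooled summits), which encodes a tensin homologue, and the protein kinase gene Pkn (1259, 10 pooled summits).

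Scored by the highest summit within 500 bp of any start, sisA and sc, the X-linked activators, had the weakest promoter summits of the 7. For Sxl that summit was nearest to the third cluster. Its late promoter had a pooled summit at rank 5786 and its early promoter at rank 10174, beside rank 5919 for sc. On the X, 8.79% of coding genes (193 of 2196) had an IDR promoter summit, and of the 3 members there only Sxl did. The promoter summit of sc (chrX:396060-397497, plus strand) lay 73 bp upstream of its single 5′ end at pooled rank 5919, with 1.51 times the list median. It ranked 4918 in replicate 2 (1.55 times the median) and 18273 in replicate 3 (0.916 times), so its place was far higher in replicate 2. The other 6 pooled summits of sc lay from 12838 bp upstream to 5526 bp downstream of its start, at ranks from 10979 to 21520. None of these 6 was within the gene itself.

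At sisA (chrX:11321579-11322357, minus strand) the pooled promoter summit lay 304 bp upstream at rank 15499, with 0.986 times the list median and a −log10 q of 0.596. Neither replicate list had a summit within 100 bp of it. Replicate 2 had no summit assigned to sisA at all. The single one of replicate 3, at rank 7071, lay 427 bp upstream and nearer to another pooled summit, of rank 28239. At sisA no call was therefore shared by the replicates.

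The windows of the sc and sisA pooled summits are shown, by a choice made after their ranks were seen, because these genes supply the X-linked signal.
sc rank 5919, chrX:395937-396037, plus strand: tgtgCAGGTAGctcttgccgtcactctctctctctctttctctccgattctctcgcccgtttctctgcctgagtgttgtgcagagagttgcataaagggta
sisA rank 15499, chrX:11322611-11322711, minus strand: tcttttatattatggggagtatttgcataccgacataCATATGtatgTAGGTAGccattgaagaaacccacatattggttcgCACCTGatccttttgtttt
The sc window held 1 CAGGTAG and, counting overlaps, 8 copies of GAGAG, the core of sites of the GAGA factor. The sisA window held 2 E-boxes and 1 TAGGTAG.

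da (chr2L:10388105-10393228, plus strand), the shared partner of the activators, had a single pooled summit, 88 bp upstream of its 5′ end at rank 2377 and 2.28 times the list median. Replicate 3 placed its summit 65 bp upstream at rank 1844, with 2.58 times the median. Replicate 2 placed it 13 bp downstream at rank 4513, with 1.61 times the median. Both replicates thus had a peak at the da start, with a lower rank in replicate 2. Further summits deeper inside the gene, 1 in replicate 2 and 2 in replicate 3, ranked 25312 or lower.

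emc, the inhibitor of da and sc, lies at chr3L:749400-753492 on the plus strand. Its IDR summit lay 6 bp downstream of the 5′ end, in the untranslated part of the first exon, at rank 1903 and 2.52 times the list median. In replicate 2 the summit lay 56 bp upstream at rank 1211 (2.72 times the median), and in replicate 3 it lay 3 bp downstream at rank 5156 (1.60 times). Among the 5 genes with an IDR promoter summit, emc had the largest gap in rank between the replicates. The other pooled summits of emc included 3 upstream of the gene, 2812, 3602 and 4761 bp from the start, at ranks from 5884 to 7361. Of these, the one at 3602 bp ranked 3046 in replicate 3 and 9441 in replicate 2. The part of the IDR summit's window up to the start of transcription and the first 30 transcribed bases are shown, because the replicates differed at this promoter. The replicate 2 summit, 56 bp upstream, lies just outside the printed stretch.
emc rank 1903, chr3L:749356-749429, plus strand: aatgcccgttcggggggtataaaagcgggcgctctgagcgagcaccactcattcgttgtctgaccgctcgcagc
None of the marked strings was in it.

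gro, the corepressor that dpn recruits, had the highest promoter summit of the 7. It lies at chr3R:26041736-26049911 on the plus strand with 4 annotated 5′ ends. The summit (rank 758, chr3R:26042460-26042583, 3.80 times the list median) lay 87 bp upstream of the internal 5′ end at 26042641, in an intron of the longer transcripts. It ranked 861 in replicate 2 and 904 in replicate 3, with 3.15 and 3.58 times the median, so the replicates gave nearly the same place in the list. Another summit, 26 bp upstream of the upstream-most 5′ end at 26041736, was outside the IDR list at pooled rank 3482, with replicate ranks of 4148 and 2284. The internal start therefore had the higher signal of the 2 in all 3 lists. Its window is shown as the site of highest signal among the 7 genes.
gro rank 758, chr3R:26042504-26042604, plus strand: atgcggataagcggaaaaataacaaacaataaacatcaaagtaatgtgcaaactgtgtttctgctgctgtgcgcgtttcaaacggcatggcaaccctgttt
It held none of the marked strings.

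dpn, the hairy-type repressor (chr2R:8228971-8232330, minus strand), had its stronger IDR summit away from its start. That summit lay 1361 bp upstream of the single 5′ end at rank 972 (chr2R:8233501-8233880), with 3.39 times the list median. It ranked 916 in replicate 2 and 1779 in replicate 3, within the highest 2445 of each. The promoter summit, 1 bp upstream of the 5′ end, ranked 2312 in the IDR list, 3872 in replicate 2 and 3074 in replicate 3. Its promoter was thus in the IDR list without being among the 2445 highest of either replicate. The window of the upstream summit held 1 E-box, and that of the promoter summit 1 GAGAG.

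**Figure D4:**
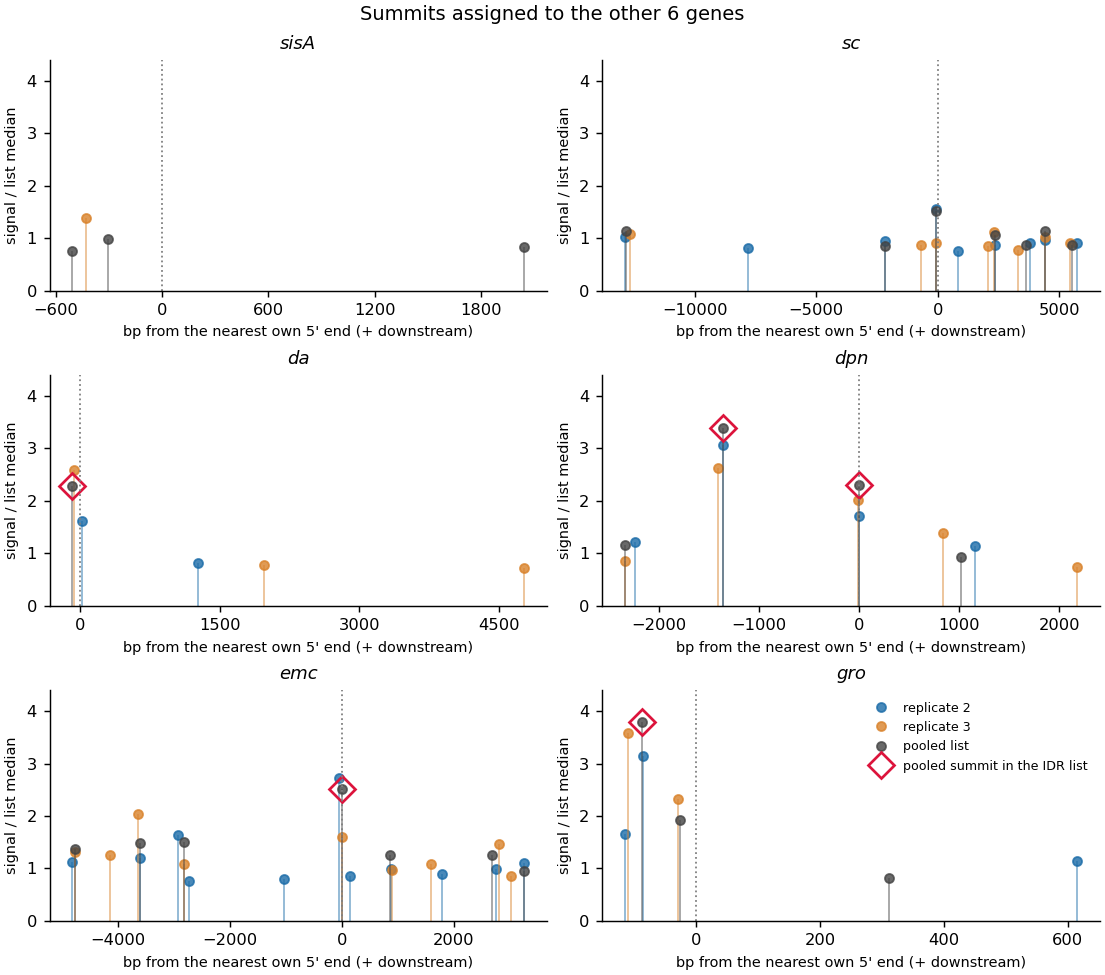
Each stem is a summit assigned to sisA, sc, da, dpn, emc or gro, placed by its distance in bp from the nearest 5′ end of that gene, with its signal as a multiple of the list median; red diamonds mark pooled summits in the IDR list. The dpn summit 1361 bp upstream exceeds the one at the dpn start in all 3 lists, and all summits of sc and sisA stay under 1.6 times the median.

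Sites known for the pathway's own regulators and for other DNA-binding factors were then counted at the 8 member IDR summits. In windows of 101 bp an E-box was present at 2 of 8, whereas 34.1% of all IDR summits and 39.7% of all pooled summits had one. The E-box count followed the window, with 5 of 8 within 100 bp of the summit (58.6% of all IDR summits) and 0 of 8 within 25 bp (18.1%). CACGCG was at 1 of 8, against 1.55% of all IDR summits, and TAGGTAG at 1 of 8, against 0.613%, both at the Sxl summit of rank 1314. TAGGTAG and CAGGTAG were added after sequences had been read, so their counts at the member summits are no independent evidence. GAGAG was at 1 of 8, against 10.6%. The strings CAGGTA (2.09% of IDR summits), CAGGTAG (0.491%), CACGTG (1.02%), TATCGATA (the DNA replication-related element, 2.21%) and GGTCACAC (a site of the promoter factor M1BP, 1.60%) were at 0 of 8. CAGGTAG contains CAGGTA, and CACGTG is itself an E-box. The GC content of the 8 windows was 45.0% ± 7.71 (SD, n = 8 summits, several from the same gene), and that of all IDR windows 34.9% ± 10.7, with the members' windows spanning 32.7 to 58.4%. Whether GC content has a part in the motif counts was not tested.

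In the IDR list the rest of the pathway had a share close to that of all coding genes. In a wider list of 32 genes, 4 of the 30 protein-coding ones had an IDR promoter summit (13.3%, beside 12% of all coding genes), as did 0 of the 2 non-coding roX genes. In the pooled list 26 of the 30 had one (86.7%, beside 54.2%). Of 6 genes of the X signal and its receptor path, Stat92E, the transcription factor of the JAK/STAT pathway, had an IDR summit at rank 753, which was 382 bp downstream of a start and ranked 589 and 1297 in the replicates. Among the 8 splicing and m6A cofactors of Sxl, the writer-complex gene fl(2)d had one at rank 874, shared with CG13339, and the methyltransferase subunit gene Mettl14 one at rank 2149, shared with Ostgamma. All 8 had a pooled summit, with Mettl3 at rank 2546 and nito at 2615 just outside the IDR list. Among the 5 targets, tra2, the splicing partner of tra, had an IDR summit at rank 2411, 9 bp from its start, and ix alone had no pooled summit.

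The other groups had 0 IDR promoter summits. All 8 dosage compensation genes had a pooled promoter summit. So did h, a hairy-type pair-rule repressor, at rank 3115, and the zinc-finger gene her at rank 24683, where Trpgamma shares the summit. Of the 3 neighbours of sc in the achaete-scute complex, l(1)sc had a pooled summit, at rank 11017, and ac and ase did not. Among the X signal genes run alone had no pooled promoter summit. Other wider-list pooled summits, among them that of Mettl3, also had a start of another gene within 500 bp. The genes ac, ase, l(1)sc, her, run and ix are named here after their values were seen. So are CG13339, Ostgamma and Trpgamma, which are among the genes that share summits with wider-list genes.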

How the data were processed

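Whole-embryo ChIP-seq of CG7271-GFP was deposited as 4 narrowPeak lists on dm6; chromatin was sonicated to 200 to 800 bp per the labels. Per the deposited notes, the authors called peaks on each replicate and on both pooled against a control alignment (not analysed here), and derived the IDR list from these. The caller, the aligner, each version and the IDR cutoff were not given in the sources used here. Each peak carries the authors' signal, used within a list only, −log10 q value and summit offset. The deposited −log10 q values share an upper limit (3.7 for 2493 pooled peaks) and ranked nothing.

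Summits were assigned with Ensembl release 115 (transposable element records left out) in Python 3.11.15, by code tested on simulated positions. Genes were restricted after a first run to the arms that the peaks cover. Motifs were sought on both strands as 9 strings, 2 of them added after sequences had been read. Joining Sxl starts within 500 bp was set after the annotation was seen. Replicate summits were matched within 100 bp, or 200 bp for replicate ranks of the 8 IDR summits. Named genes are the members, wider-list genes with an IDR promoter summit and the next 3 by pooled rank (h was matched to hry), any gene with a start within 500 bp of a member's IDR summit (there was none), and the 4 genes most like Sxl in IDR summits and best rank. Members and lists were chosen with earlier results of these data known. Alternatives changed the promoter distance, list, replicate, assignment rule and window. The sequence at the da summit is not reported here.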

Additional observations from a re-analysis of the deposited data

How the results depend on the processing

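No paired analysis was possible because both libraries belong to 1 group. Of 61 alternative values, 31 kept to the value reported within 1.5 times (for a count) or within the spread of the replicates (for a rank), and 30 did not. For a rank, the replicate ranks were the alternatives and also set the spread, so close replicates left little room. The gro summit (rank 758, with 861 and 904 in the replicates) was thus labelled as changed in both. Cutting the IDR list or taking all pooled peaks can move a count in 1 direction only. The split into 31 and 30 is therefore no measure of stability. Among the higher 1222 IDR peaks, 1 member (gro), 2 wider-list genes and 883 coding genes kept a promoter summit, and the members held 2 IDR summits in place of 8. With all pooled peaks 28 wider-list genes and 7555 coding genes had one. Summits inside the gene alone numbered 5 in the IDR list and 23 in the pooled list. E-boxes were at 5 of the 8 summits within 100 bp (58.6% of all IDR summits) and at 0 within 25 bp (18.1%). Joining the Sxl starts within 1000 bp, an alternative chosen after seeing the data, gave the late promoter 2 IDR summits and the third cluster 0. With the 2445 highest peaks of a single replicate, members with a promoter summit numbered 3 to 3, the summits assigned to them 4 to 6, those nearest to the early start of Sxl 0 to 0 and those nearest to the third cluster 1 to 2. The median rank of the 8 IDR summits, 1844.5 in the IDR list, was 1986 to 2040 in the replicate lists. With 2 replicates and no read counts, the size of any difference in signal between sites has no error here, and a site outside the IDR list is not shown to be unbound.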
